A study of Mus musculus with 2 samples.

Results

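The liver X receptor (LXR) efflux genes examined here are Abca1, Abcg1, Mylip, Nr1h2, Nr1h3 and Lpcat3, 6 of the 19837 genes in the deposited table. They were chosen by name as one pathway, with their measured levels in T cells of these same pools already known. Their levels and ratios are therefore given as a description, and no support is drawn from them. LXRs are nuclear receptors that bind oxysterols and pair with retinoid X receptors on target genes. Their targets export cholesterol from the cell, limit its uptake and remodel membrane phospholipids. In T cells this pathway is known for setting the sterol content of the membrane, and it works opposite to SREBP2, the factor that switches on sterol synthesis and uptake when sterols are low.

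The data are single-cell transcriptomes of spleen T cells from female C57BL/6 mice, with the strain labelled C57/BL6N. The saline group is labelled 0 h, and the other groups received remimazolam, a short-acting benzodiazepine, at 6 mg/kg, with spleens taken after 4 h or after 8 h. The later times have no saline group of their own. Each group was a pool of 3 mice under 1 sample tag, and the 3 pools were captured and sequenced together. The labels give the sort as CD45+CD3+CD5+ in one field and as CD45+ in another.

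With 1 pool per treatment no value has a replicate check. No test between treatments was possible, and all 95% intervals, given in parentheses after a value, cover counting error only. A gene was counted as past the fold where the log2 ratio of its levels was at least 0.32 or at most −0.32 and it had at least 100 molecules in T cells. Levels are error-corrected molecules of a gene per 1000000 molecules counted in the same cells (CPM). Kept cells numbered 5267 in the saline pool, 5433 at 4 h and 5423 at 8 h. T cells, gated on a molecule of Cd3d, Cd3e or Cd3g, made up 94.3%, 93.4% and 93.5% of them. The CD3 genes summed to 1892, 1930 and 1899 CPM in these cells, and the median T cell held 2546, 2527 and 2530 molecules. The B cell marker list (Cd79a, Cd79b and Ms4a1) summed to between 10.3 and 12.2 CPM in the gated T cells, with all 3 genes above 0 in each pool. The myeloid list of 8 genes summed to between 7.37 and 8.54 CPM, with C1qa at 0 in both remimazolam pools, Adgre1 at 0 at 4 h and Csf1r at 0 at 8 h. The gate required a CD3 molecule and barred 2 or more B cell, or myeloid and neutrophil, molecules, so these sums follow in part from it. Of lists outside the gate, natural killer cell genes summed to 22.6, 24.4 and 34.7 CPM in the saline, 4 h and 8 h pools. Plasma cell genes summed to 40.7, 41.2 and 44.6 CPM, stromal or endothelial genes to 128, 125 and 133, and erythroid genes to 2.58, 1.16 and 1.37.

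Promoter sequences are shown because the set is defined by LXR control, and the classical LXR site in Abca1 lies close to its start. RefSeq promoters on GRCm38.p6, covering 250 bases before to 50 bases after the start, were matched for 5 of the 6 members, all but Abcg1. They were searched on both strands for the direct repeat DR4, written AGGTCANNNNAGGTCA, with at most 3 mismatches in its 12 fixed letters. The Abca1 promoter at chr4:53159846-53160145, minus strand, is printed 5′ to 3′, with capitals marking the match, which lies 67 to 52 bases before the start.
Abca1 promoter: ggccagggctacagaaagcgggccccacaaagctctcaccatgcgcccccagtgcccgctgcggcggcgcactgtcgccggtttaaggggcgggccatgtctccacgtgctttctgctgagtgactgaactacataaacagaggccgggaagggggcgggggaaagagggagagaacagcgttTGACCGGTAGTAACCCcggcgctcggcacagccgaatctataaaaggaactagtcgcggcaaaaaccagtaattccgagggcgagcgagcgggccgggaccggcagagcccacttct
The match lies on the opposite strand of the promoter. Read along the motif, with the repeats in capitals and the spacer in lower case, it and the closest windows of the other members run as follows.
Abca1, 3 mismatches: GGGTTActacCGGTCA
Nr1h2, 4 mismatches: AGTTCCggaaAGTTCT
Nr1h3, 4 mismatches: AGGTCCcggcACGGCC
Lpcat3, 4 mismatches: AGGTAGgaagAGGGCG
Mylip, 5 mismatches: AGTTCCcgggAGCTAC
Abca1 was the 1 member of these 5 with a window of at most 3 mismatches. Of all 32851 promoters in the table, 21.9% held such a window and 76.9% held one of at most 4. A match describes letters, and no match says only that these letters are absent from the window.

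Among the 5 members with at least 100 molecules in T cells, Abca1 differed most between the pools. Its level was highest 4 h after remimazolam and close to that of saline at 8 h. In number of molecules the 4 h difference was largest in naive CD8 cells, the subset with most cells. Abcg1, Mylip, Lpcat3 and the receptor gene Nr1h2 stayed within the fold at both times, and Nr1h3 was close to absent from T cells. Of these 5, 1 was past the fold at 4 h over saline (Abca1, higher), against a background of 7.86% of 9951 genes. At 8 h over saline 0 of the 5 were past it, against 7.27% of genes. At 8 h over 4 h 1 was (Abca1, lower), against 6.95%. Among the 3814 genes with as many molecules as these members, 1083 to 4255, the shares past the fold were 1.02%, 0.42% and 0.76% for the same comparisons. The members were chosen with these ratios known, so nothing is read from these counts.

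**Figure D1:**
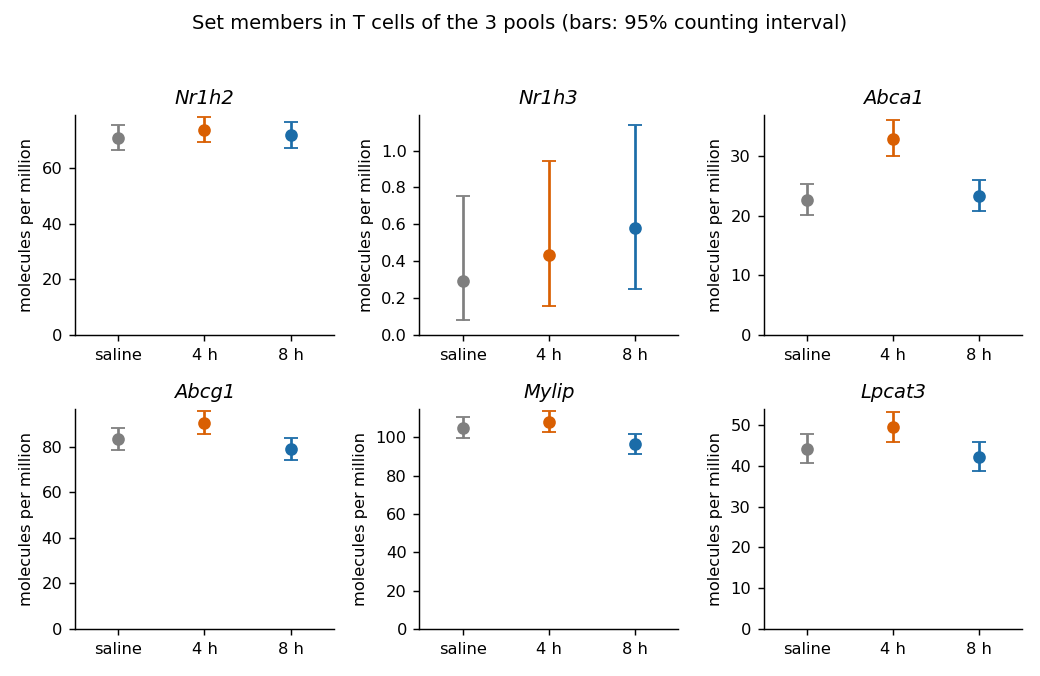
Level of each set member in all gated T cells of the saline, 4 h and 8 h pools, in CPM, with bars for the 95% counting interval. The 4 h value of Abca1, 32.9, stands above 22.5 in saline and 23.3 at 8 h, and the y axes start at 0 and differ in scale.

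Nr1h2 encodes LXRβ, the receptor form found in most tissues. It stood at 70.9 CPM in the saline pool, 73.8 at 4 h and 71.8 at 8 h. Relative to saline this is 1.04 (0.953 to 1.14) for 4 h and 1.01 (0.926 to 1.11) for 8 h, so the pools could not be told apart at this depth. The gene lies at chr7:44549616-44553951 (GRCm38, minus strand). Natural killer T (NKT)-like cells stood at 99.4, 96.4 and 118 CPM in the saline, 4 h and 8 h pools, or 104 (80.7 to 132) over the 3 pools. They were the highest T cell subset in saline and at 8 h, with gamma delta cells at 97.4 at 4 h. CD4 memory cells stood at 61.8 (51.1 to 74.1) over the 3 pools. The ratio of NKT-like to naive CD4 cells was 1.52 (1.17 to 1.96), with pool values of 1.48, 1.48 and 1.64.

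Nr1h3 encodes LXRα, the form known from macrophages, liver and fat, and lies at chr2:91184061-91202834 (GRCm38, minus strand). It had 4 molecules in T cells of the saline pool, 6 at 4 h and 8 at 8 h. These 18 molecules lay in 17 of 15115 T cells, too few for any comparison of treatments. In the 51 myeloid cells that passed the sort it had 8 molecules, in 6 cells. Its level there was 49.6 CPM (21.4 to 97.8), against 0.436 CPM (0.259 to 0.690) in T cells. B cells held 0 molecules in 390 cells, which allows up to 0.769% of cells with a molecule (3 of 390) and sets no limit on cells that express the gene.

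Abca1 encodes the transporter that passes cholesterol and phospholipid to lipid-poor apolipoprotein A-I. The gene lies at chr4:53030787-53159895 (GRCm38, minus strand). It had 306 molecules in T cells of the saline pool, 455 at 4 h and 322 at 8 h, or 22.5, 32.9 and 23.3 CPM. The 4 h pool over saline gave 1.46 (1.26 to 1.69) and the 8 h pool over saline 1.03 (0.881 to 1.21). The 8 h pool over the 4 h pool gave 0.709 (0.612 to 0.819). The 4 h pool is thus the high one, and its counting interval does not overlap those of the others.

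The share of T cells with an Abca1 molecule was 5.27% in saline, 6.85% at 4 h and 4.99% at 8 h. When each cell was thinned to 1500 molecules, which left out 723 shallower T cells, the shares were 3.31%, 4.40% and 3.16%, in the same order. Cells with 2 Abca1 molecules numbered 32, 73 and 35. No single cell held more than 1.24% of a pool's Abca1 molecules. Reads per molecule were 5.25 in saline, 5.25 at 4 h and 5.51 at 8 h, close to the 5.47 of all genes in T cells. Of the 3814 genes with 1083 to 4255 molecules, 4 had a higher 4 h ratio than Abca1. Abca1 itself had 1083, the low edge of that range, where the counting error of a ratio is largest. The choice of the gene with its ratio known also makes the rank no evidence.

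Naive CD8 cells had Cd8a or Cd8b1, no Cd4 or Ccl5, and a molecule of a naive-cell gene such as Ccr7. They made up 31.3% of T cells and carried 42.1% of the Abca1 molecules of T cells. Their shares of Abcg1, Mylip, Nr1h2 and Lpcat3 molecules were 31.9%, 29.7%, 34.9% and 28.5%. Their Abca1 level was 28.1 CPM in saline, 46.8 at 4 h and 26.5 at 8 h, from 126, 216 and 114 molecules. The 4 h ratio to saline was 1.67 (1.33 to 2.09), the 8 h ratio 0.946 (0.727 to 1.23), and the 8 h pool over the 4 h pool gave 0.567 (0.448 to 0.715). A molecule was found in 6.51%, 9.82% and 6.39% of naive CD8 cells, and in 3.66%, 6.36% and 4.01% after thinning. The 4 h pool stood apart here from both others. Without naive CD8 cells, a choice made after the values were seen, the remaining T cells gave 1.31 at 4 h over saline. At 8 h over 4 h they gave 0.843, which is no longer past the fold.

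Gamma delta cells, gated on Trdc, had Abca1 at 24.4 CPM in saline, 48.7 at 4 h and 34.4 at 8 h, from 15, 35 and 22 molecules. The 4 h ratio to saline was 1.997 (1.06 to 3.94). NKT-like cells, gated on Zbtb16 or Klrb1c without Cd8a or Cd8b1, stood at 23.4, 66.8 and 39.4 CPM from 4, 18 and 8 molecules. Their 4 h ratio was 2.85 (0.94 to 11.6), not separable from 1 at this depth. Naive CD4 cells stood at 19.4, 24.7 and 24.2 CPM, with log2 ratios to saline of 0.35 at 4 h and 0.32 at 8 h. The intervals of the ratios were 0.888 to 1.84 and 0.876 to 1.79, and both include 1. The remaining T cells, outside all named subsets, had a 4 h ratio of 1.35 (0.958 to 1.91).

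In 3 subsets the 4 h value of Abca1 was below that of saline, each with a wide interval. Regulatory cells, gated on Foxp3, had 11 molecules at 4 h against 12 in saline, a ratio of 0.744 (0.297 to 1.84). CD8 memory cells, gated on Ccl5, had 20 against 23, a ratio of 0.810 (0.422 to 1.54). CD4 memory cells had 6 against 6, a ratio of 0.832 (0.222 to 3.11). Whether these subsets differ from naive CD8 cells in their ratio was not tested, and with 1 pool per treatment it cannot be.

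**Figure D2:**
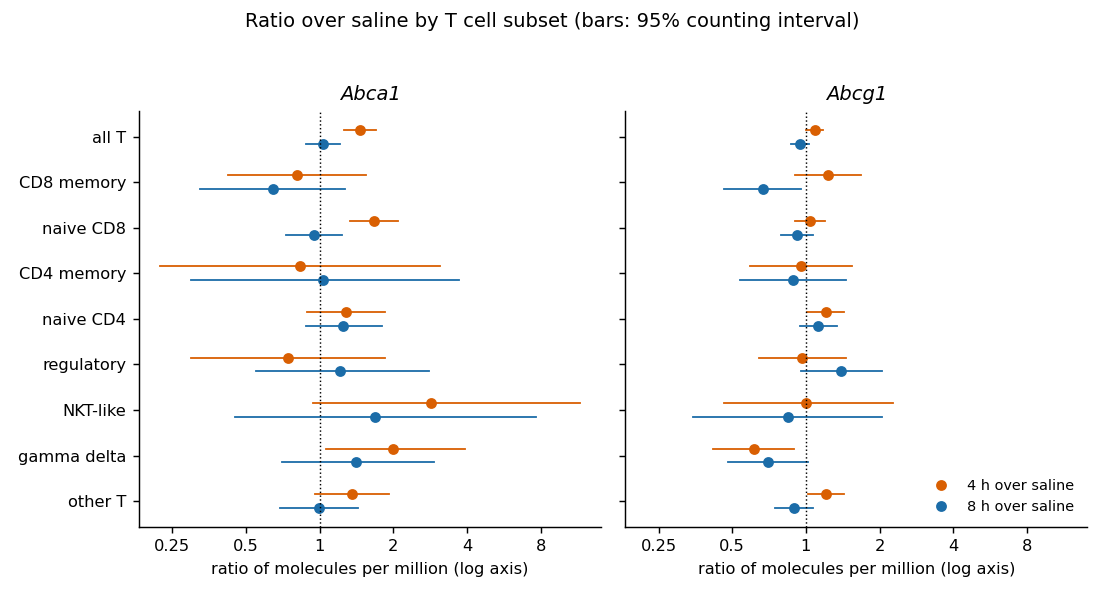
Ratio of the level at 4 h and at 8 h to that in saline for Abca1 and Abcg1, in all T cells and in each of 8 subsets, on a log axis with 95% counting intervals. The 4 h ratio of Abca1 is 1.46 in all T cells and 1.67 in naive CD8 cells, while the 4 h ratio of Abcg1 lies below 1 in gamma delta cells at 0.611.

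The order of the T cell subsets by Abca1 level was not the same in the 3 pools. The intervals of the highest subsets named here overlapped within each pool. In saline naive CD8 cells were highest at 28.1 CPM, followed by CD8 memory cells at 27.5, gamma delta cells at 24.4, regulatory cells at 23.7 and NKT-like cells at 23.4, with overlapping intervals. At 4 h NKT-like cells at 66.8, gamma delta cells at 48.7 and naive CD8 cells at 46.8 were highest. At 8 h NKT-like cells at 39.4, gamma delta cells at 34.4 and regulatory cells at 28.7 were highest, from 8, 22 and 17 molecules. Summed over the 3 pools, NKT-like cells stood at 46.6 CPM (31.4 to 66.5), gamma delta cells at 36.5 (28.6 to 46.0) and naive CD8 cells at 34.0 (31.0 to 37.3), and 97 of the 216 NKT-like cells came from the 4 h pool. CD4 memory cells were lowest in each pool, and stood at 10.0 CPM (6.05 to 15.7) over the 3 pools, from 19 molecules. Naive CD8 over naive CD4 gave 1.496 (1.27 to 1.77), with pool values of 1.45 in saline, 1.89 at 4 h and 1.10 at 8 h. CD8 memory over naive CD8 gave 0.657 (0.493 to 0.861) over the 3 pools. The saline pool gave 0.982 (0.600 to 1.54), the 4 h pool 0.477 (0.286 to 0.755) and the 8 h pool 0.672 (0.378 to 1.12), so the interval was clear of 1 in the 4 h pool alone.

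CD4 memory over naive CD4 gave 0.442 (0.261 to 0.708) for Abca1, and the ratio lay below 1 in each pool at 0.546, 0.356 and 0.450. Cycling T cells, with at least 3 molecules of Mki67, Top2a, Birc5, Ccna2 and Stmn1, had 9 Abca1 molecules in 203 cells. Their level was 6.19 CPM, against 27.0 in the T cells outside that state, a ratio of 0.229 (0.105 to 0.437). By pool the 9 molecules were 1 in saline, 3 at 4 h and 5 at 8 h, and at 8 h the ratio was 0.433 (0.140 to 1.02). Cycling cells were deeper, with a median of 6097 molecules, and the part of depth in these ratios was not tested. No population here is known to lack Abca1, so the share in CD4 memory cells, 2.53% of cells with a molecule at a median of 2634.5 molecules per cell, is the lowest comparison among the 8 subsets. It compares with 7.61% of naive CD8 cells, whose median was 2702.

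B cells had more Abca1 than T cells in every pool. The 390 B cells stood at 109 CPM in saline, 113 at 4 h and 128 at 8 h. The ratio to T cells of the same pool was 4.82, 3.44 and 5.48, and 4.45 (3.66 to 5.37) over all. The B cells' own 4 h ratio to saline was 1.04 (0.647 to 1.70). In T cells without a single molecule of the B cell, myeloid and neutrophil lists the Abca1 ratio was 1.40 at 4 h over saline and 0.993 at 8 h over saline.

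Abcg1 encodes a half-transporter that moves cholesterol to high-density lipoprotein, and lies at chr17:31057675-31117988 (GRCm38, plus strand). It stood at 83.3 CPM in saline, 90.5 at 4 h and 79.0 at 8 h in T cells. Relative to saline this is 1.09 (1.00 to 1.18) for 4 h and 0.948 (0.872 to 1.03) for 8 h, and 8 h over 4 h gave 0.873 (0.804 to 0.947). The 4 h pool was highest, which held for all 5 measured members. For Abca1 and Abcg1 the interval of 8 h over saline includes 1. The share of cells with a molecule was 18.1%, 19.6% and 17.6%, and 11.5%, 12.6% and 10.8% after thinning.

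The subset with the highest Abcg1 level was another one in each pool. It was gamma delta cells at 114 CPM in saline, CD8 memory cells at 110 at 4 h and regulatory cells at 128 at 8 h. In each pool its interval overlapped that of the next subset. At 8 h the next was naive CD4 cells at 92.6, and the ratio of regulatory to naive CD4 cells was 1.39 (1.06 to 1.79). Summed over the pools, regulatory cells stood at 104 CPM (89.2 to 120) and naive CD4 cells at 91.3 (85.1 to 97.8), with overlapping intervals. CD4 memory cells were lowest in each pool, and stood at 58.1 (47.8 to 70.1) over all. At 8 h they stood at 54.5, close to NKT-like cells at 59.1 and CD8 memory cells at 59.7. CD4 memory over regulatory cells gave 0.560 (0.438 to 0.714) and CD4 memory over naive CD4 gave 0.637 (0.517 to 0.778). Unlike Abca1, Abcg1 was not higher in B cells, with a B cell over T cell ratio of 0.840 (0.658 to 1.06). Cycling T cells stood at 36.5 CPM, against 86.0 in the T cells outside that state, and the part of their greater depth was not tested. Cells with recent-stimulation genes (Egr1, Egr2, Egr3, Nr4a1, Nr4a3) stood at 61.4, against 85.7 in the T cells outside that state. That ratio was 0.614 (0.447 to 0.825) in saline. The 4 h pool gave 0.602 (0.432 to 0.819) and the 8 h pool 0.961 (0.732 to 1.24), whose interval includes 1.

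The treatment ratios of Abcg1 lay on different sides of 1 in different subsets. Naive CD4 cells had 99.2 CPM at 4 h against 82.4 in saline, a ratio of 1.20 (1.01 to 1.43). Gamma delta cells had 69.6 CPM at 4 h against 114 in saline, a ratio of 0.611 (0.417 to 0.892). CD8 memory cells stood at 89.8 CPM in saline, 110 at 4 h and 59.7 at 8 h, with a ratio of 0.665 (0.463 to 0.951) at 8 h over saline. Regulatory cells stood at 92.7, 89.6 and 128 CPM, with 1.43 (1.00 to 2.06) at 8 h over 4 h. These rest on 47 to 277 molecules a pool. Over the 5 members with enough molecules and 8 subsets, 40 ratios were formed per comparison. The interval lay clear of 1 for 6 of them at 4 h over saline, for 2 at 8 h over saline and for 7 at 8 h over 4 h. There was no correction for their number. The share of all genes with such intervals in these subsets was not computed, so nothing is read from these counts.

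**Figure D3:**
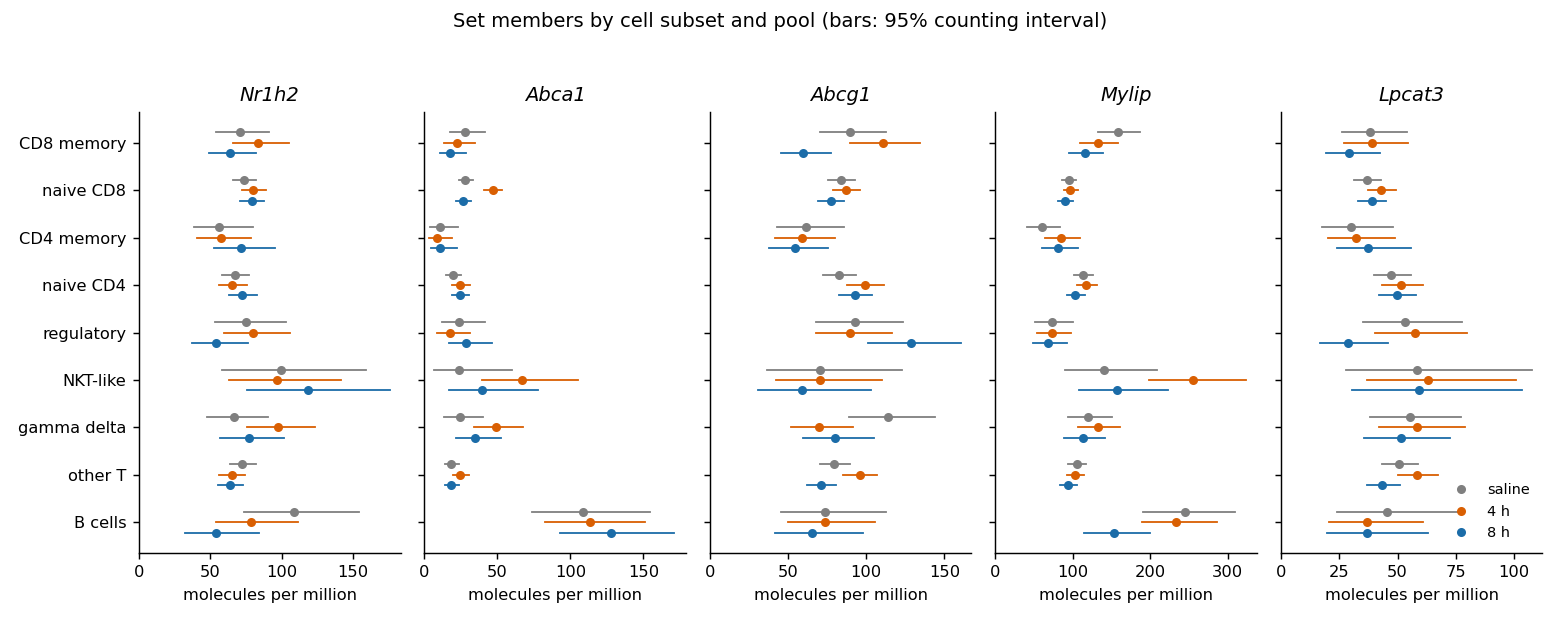
Level of 5 set members in each T cell subset and in B cells, in CPM, for the saline, 4 h and 8 h pools, with 95% counting intervals. Abca1 is highest in B cells in each pool, Mylip is highest in B cells in saline and in NKT-like cells at 4 h and 8 h, Abca1 in naive CD8 cells is apart at 4 h, and CD4 memory cells are the lowest T cell subset for Abca1 and Abcg1 in each pool.

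Cells with a molecule of Abca1 held one of Abcg1 more often than cells without. Of 863 T cells with an Abca1 molecule, 26.8% (23.8 to 29.9) also had one of Abcg1. Of the 14252 without, 17.9% (17.3 to 18.6) did. The median depths were 2687 molecules in cells with Abca1 and 2527 in those without, and their part in this difference was not tested. Within naive CD8 cells the shares were 24.7% (20.4 to 29.5) and 18.1% (17.0 to 19.3). Abcg1 and Mylip gave 27.3% of cells with Abcg1 against 20.5% of cells without.

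Mylip encodes the ubiquitin ligase IDOL, which limits the uptake of lipoprotein cholesterol, and lies at chr13:45389742-45412022 (GRCm38, plus strand). It stood at 105 CPM in saline, 108 at 4 h and 96.5 at 8 h in T cells. Over saline, the 4 h pool gave 1.03 (0.960 to 1.11) and the 8 h pool 0.921 (0.854 to 0.993). Over the 3 pools together, NKT-like cells stood at 194 CPM (162 to 231) and CD8 memory cells at 134 (121 to 149), while regulatory cells stood at 71.3 and CD4 memory cells at 76.1. CD8 memory over naive CD8 gave 1.43 (1.27 to 1.61) and was above 1 in each pool, at 1.67, 1.37 and 1.28. Regulatory over naive CD4 gave 0.641 (0.527 to 0.774).

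In NKT-like cells Mylip stood at 140 CPM in saline, 256 at 4 h and 158 at 8 h, with a 4 h ratio to saline of 1.82 (1.13 to 3.03) from 69 against 24 molecules. Zbtb16 and Klrb1c, which gate this subset, summed to 10.7, 19.5 and 15.0 CPM in all T cells, and NKT-like cells numbered 53, 97 and 66. In CD8 memory cells Mylip had 110 molecules at 8 h against 132 in saline, a ratio of 0.729 (0.561 to 0.947). B cells stood at 210 CPM over the 3 pools, 2.03 times (1.77 to 2.33) the T cell level, with 153 at 8 h against 245 in saline. Cycling T cells stood at 36.5 CPM, against 106 in the T cells outside that state, a ratio of 0.345 (0.258 to 0.453). The same ratio was 0.689 (0.538 to 0.869) for Nr1h2 and 0.539 (0.376 to 0.749) for Lpcat3. Cycling cells were deeper, with a median of 6097 molecules, and the part of depth was not tested.

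Lpcat3 encodes a lysophospholipid acyltransferase that places polyunsaturated fatty acids in membrane phospholipids. It lies at chr6:124663027-124704418 (GRCm38, plus strand), where 334 bases overlap Emg1 on the opposite strand. Emg1 had 5433 molecules in T cells, and the sources used here do not say whether counting used the strand. Lpcat3 stood at 44.1 CPM in saline, 49.4 at 4 h and 42.2 at 8 h. Over saline, the 4 h pool gave 1.12 (1.00 to 1.252) and the 8 h pool 0.956 (0.851 to 1.07), and 8 h over 4 h gave 0.853 (0.763 to 0.954). Gamma delta over naive CD8 gave 1.40 (1.12 to 1.72), CD4 memory over naive CD4 0.673 (0.508 to 0.877), and naive CD8 cells had 39.6 CPM against 49.5 in naive CD4 cells, with a ratio interval of 0.704 to 0.910. In regulatory cells it had 17 molecules at 8 h against 36 at 4 h, a ratio of 0.499 (0.263 to 0.912).

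Across the 8 subsets and 3 pools, 24 profiles that share 1 capture and differ in depth, the members' levels were related to different degrees. On log2(CPM + 1), Abca1 and Mylip had a Pearson r of 0.63, Abca1 and Nr1h2 0.62, Nr1h2 and Lpcat3 0.65, and Abca1 and Abcg1 0.27. Mylip and Nr1h2 had 0.63, Abca1 and Lpcat3 0.52, and Mylip and Lpcat3 0.51. Abcg1 stood apart, with 0.11 to Lpcat3, −0.08 to Mylip and −0.23 to Nr1h2. Among 7587 genes with at least 500 molecules, the pattern nearest to Abca1 was that of Otulinl (r 0.81), then Calhm6, Tut4, Evl and Pld3. Nearest to Abcg1 was Mga (0.76), then Zbtb6, Mbnl2, Erf and Mef2d. Nearest to Mylip was Gm19585 (0.87), then Padi2, Txk, Lyst and Prkd3. Nearest to Nr1h2 was Nub1 (0.82), then Trim26, Kctd12, Pgm2l1 and Rrbp1. Nearest to Lpcat3 was Mob3b (0.78), then Rgs2, Zc3h18, Suco and Nemf. These are the highest values of a search over 7587 genes, and Abca1 profiles rest on as few as 4 molecules. Nothing is read from the names.

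The wider sterol and lipid genes were grouped in 7 lists of 126 genes, of which 119 were in the table and 92 had at least 100 molecules in T cells. The 5 members had a median log2 ratio to saline of 0.12 at 4 h and −0.07 at 8 h, against 0.01 and −0.00 for all 9951 genes. Of 7 other known LXR targets that were measured, 0 were past the fold at either time, and their median was −0.06 at 4 h and 0.03 at 8 h. For this list and those of cofactors, oxysterol genes and acyltransferases, such a count cannot be told apart from the background of 7.86% of genes at 4 h and 7.27% at 8 h. The targets with most molecules were Arl4c, a small GTPase gene, at a 4 h ratio of 1.01 and an 8 h ratio of 1.03, Smpdl3a, a phosphodiesterase gene, at 0.995 and 1.07, and the desaturase gene Scd2 at 0.961 and 1.02.

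Of 15 measured genes for RXR partners and LXR cofactors 0 were past the fold against saline, with medians of −0.03 and −0.01. The corepressor genes Ncor1 and Tbl1x stood at 1.02 and 0.951 at 4 h and at 1.03 and 0.995 at 8 h, and the acetyltransferase gene Ep300 at 0.998 and 0.988. Of 3 measured genes for making or sensing oxysterols 0 were past it. Ebp, which encodes an enzyme of cholesterol synthesis, stood at 1.02 at 4 h and 0.938 at 8 h. Gpr183, the receptor gene for an oxysterol that guides lymphocytes, stood at 0.938 (0.880 to 1.00) and 0.876 (0.821 to 0.935). The 7 measured phospholipid acyltransferase genes had 0 past the fold, with Mboat7 at 1.13 and 0.966, Agpat3 at 1.06 and 1.02, and Agpat5 at 0.916 and 0.859.

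**Figure D4:**
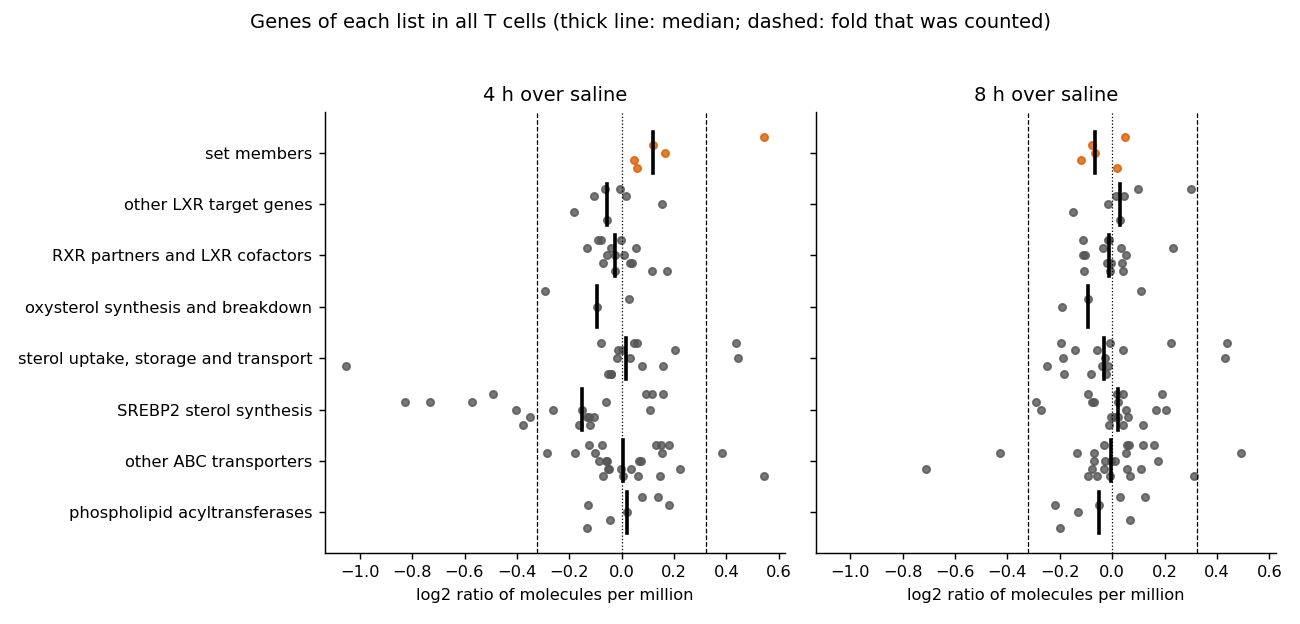
Log2 ratio to saline at 4 h and at 8 h of each measured gene in 8 lists, in all T cells, with a thick line at the list's median and dashed lines at log2 ratios of −0.32 and 0.32. SREBP2 genes lie to the left at 4 h with a median of −0.15 and near 0 at 8 h, and Abca1 is the highest set member.

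SREBP2 sterol synthesis genes had a median log2 ratio of −0.15 at 4 h, with 7 of 19 lower and 0 higher. At 8 h the median was 0.02, with 0 past the fold. Of all 9951 genes, 7.86% were past the fold at 4 h, 538 higher and 244 lower, and 7.27% at 8 h. Insig1, which retains SREBP in the endoplasmic reticulum, had a ratio to saline of 0.757 at 4 h and 0.827 (0.726 to 0.943) at 8 h. The enzyme genes Mvk, Idi1, Sqle, Cyp51 and Msmo1 stood at 0.602, 0.674, 0.563, 0.712 and 0.770 at 4 h. At 8 h they stood at 0.817, 1.02, 0.954, 1.03 and 0.991. Srebf2 itself stood at 0.899 at 4 h and 1.04 at 8 h, and Sc5d at 0.893 and 1.09. The list's 4 h median was −0.22 within naive CD8 cells and −0.19 within naive CD4 cells, a split added after the values were seen.

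In the list for uptake, storage and transport of sterols, 3 of 16 genes were past the fold at 4 h and 2 at 8 h. The background was 7.86% of genes at 4 h and 7.27% at 8 h. Scarb1, the gene of a receptor for high-density lipoprotein, stood at 1.36 (1.07 to 1.73) at 4 h and 1.35 (1.06 to 1.71) at 8 h. Lrp8, an apolipoprotein E receptor gene, stood at 1.35 (0.953 to 1.93) and 1.35 (0.954 to 1.93). The abundant members Npc2, Lipa and Gramd1a stood at 0.971, 0.972 and 1.03 at 4 h and 0.984, 0.945 and 0.994 at 8 h.

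Of the other ABC transporter genes, 25 were measured. Of these, 2 were higher and 0 lower at 4 h, and 1 was higher and 2 lower at 8 h, with medians of 0.01 and −0.00. These counts are near the background of 7.86% and 7.27% of genes. Abcb1a, a multidrug efflux pump gene, had 21.5 CPM at 4 h against 14.7 in saline, a ratio of 1.46 (1.21 to 1.75), and 1.24 (1.03 to 1.503) at 8 h. Abcc10 stood at 1.30 (0.981 to 1.74) at 4 h and 1.41 (1.06 to 1.87) at 8 h. The organelle transporter genes Abcb6 and Abcb10 stood at 0.933 and 1.02 at 4 h, and at 0.743 (0.450 to 1.21) and 0.611 (0.367 to 1.00) at 8 h. The abundant members Tap2, Tap1 and Abcf1 stood at 1.11, 0.966 and 0.999 at 4 h.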

How the data were processed

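Spleen T cells of 3 tagged pools were analysed. Reads were processed by the authors with version 1.9.1 of BD Rhapsody's whole-transcriptome multiplex software, against GRCm38 and GENCODE M19, per the file headers. The deposited table holds molecule counts per cell and gene after error correction, with raw molecule counts and read counts beside them, and the deposited calls name each cell's tag. The 1063 cells called multiplets, 60 undetermined and 2 of an unused tag were left out. Doublets within a pool were not called; an alternative left out the 5% of T cells with most molecules. Ambient RNA was not corrected. Kept cells had at least 200 genes and under 25% mitochondrial molecules. T cells had a Cd3d, Cd3e or Cd3g molecule, under 2 B cell and under 2 myeloid or neutrophil molecules, and were split by lineage genes outside the set, so the subset names are rebuilt here.

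Molecules were summed per subset and pool, from 13574907, 13839327 and 13823121 T cell molecules in the saline, 4 h and 8 h pools, where 3 molecules correspond to 0.221, 0.217 and 0.217 CPM. Intervals at 95% were exact Poisson for levels, exact conditional-binomial for ratios and Clopper-Pearson for shares. Both comparisons with saline share its pool. Ratios and intervals were run on simulated pools that held counting error alone. That run checks the calculation only, since it had no variation between cells, mice or pools. The members and lists were chosen with earlier results of these data known. Named genes were all members and, of each other list, those past the fold at 4 h or 8 h and the 3 with most molecules; a few genes that this rule or the gates use are not reported here. Coordinates are from GENCODE M21 on GRCm38. Software was Python 3.11.15, numpy 2.4.6, pandas 2.3.3, scipy 1.17.1, matplotlib 3.10.9 and R 4.3.3 with edgeR 4.0.16 for TMM factors.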

Additional observations from a re-analysis of the deposited data

Results flagged for a closer look

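Abcg1 was the member whose treatment ratios stood on opposite sides of 1 in different subsets with both counting intervals clear of 1. At 4 h over saline the ratio was 1.20 (1.01 to 1.43) in naive CD4 cells and 1.21 (1.02 to 1.43) in the remaining T cells. It was 0.611 (0.417 to 0.892) in gamma delta cells. At 8 h over 4 h it was 1.43 in regulatory cells, with an interval of 1.002 to 2.06 that barely clears 1. It was 0.541 (0.383 to 0.757) in CD8 memory cells and 0.741 (0.623 to 0.880) in the remaining T cells. These were picked from 40 ratios per comparison with no correction for their number. These differences between subsets were not tested, each subset has 1 pool per treatment, and the subsets come from the same capture.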

How the results depend on the processing

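The Abca1 ratio at 4 h over saline lay between 1.31 and 1.54 under 12 alternatives and stayed past the fold in each. These were a stricter cell filter, raw molecules, equal weight per cell, fixed subset shares, TMM factors, all kept cells, T cells free of other lineages' molecules, removal of deep cells or of the top Abca1 cell, thinning, and removal of naive CD8 or of NKT-like and gamma delta cells. The last pair was chosen after seeing the data. At 8 h over saline it lay between 0.993 and 1.10. At 8 h over 4 h it lay between 0.684 and 0.843, and the highest, without naive CD8 cells, was outside the counting interval. For Abcg1 the ranges were 1.07 to 1.13 at 4 h and 0.932 to 0.988 at 8 h over saline. The number of genes past the fold depended on its settings: at 4 h it was 175 at a fold of 1.5, 1521 from 30 molecules, 145 from 500 molecules and 7067 with no minimum, against 782. At 8 h these were 141, 1470, 120 and 7005, against 723. TMM and the stricter filter kept it within 1.5 times. All 70 alternative list medians stayed within the rank interval of their list's median. Of 80 alternative subset levels, 74 stayed in the counting interval. Among the other 6, Abcg1 in CD4 memory cells was 47.4 CPM and Mylip in gamma delta cells 143 CPM with gates of at least 2 molecules. No paired analysis was possible because each treatment has 1 pool. Depth limits NKT-like, CD4 memory and regulatory values of Abca1, with 4 to 18 molecules a pool.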
